A study of Mus musculus with 7 samples.

Results

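Cytosolic phospholipase A2 and the genes of leukotriene synthesis were examined in mouse regulatory T (Treg) cells with and without Hpgd, the gene of the enzyme that inactivates prostaglandins. The 5 genes are Pla2g4a, Alox5ap, Alox5, Lta4h and Ltc4s. Of these, 4 have a row among the 15815 genes of the deposited table, and Ltc4s was not analysed here. They were selected by name after an earlier pass over the same data, in which Pla2g4a had the smallest p of a prostaglandin gene list and Alox5ap was named beside it. The measured difference between Hpgd-deficient and WT cells thus chose Pla2g4a and Alox5ap, and for every one of these genes that difference is given below as a description with no test.

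The Hpgd-deficient group (KO, 3 libraries) and the WT group (4 libraries) are YFP+ Treg cells sorted from mesenteric lymph nodes (mLN) of Rag-/- hosts, mice that have no T or B cells of their own. Each host had been given WT naive T cells, unmarked WT Treg cells and, beside them, YFP+ Treg cells, either Hpgd-deficient or WT, and was sacrificed 8 weeks later. The labels give the strain C57BL/6JRcc and the same line for all 7 samples, Hpgd fl with Foxp3-YFP-Cre, in which the Foxp3 promoter drives YFP and Cre, so the alleles of the WT donors are not stated separately and the genotype follows the sample titles. Whether each library is a separate host is not stated either, and spreads and p-values describe these libraries, which may be technical repeats.

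Cytosolic phospholipase A2 (Pla2g4a) frees arachidonic acid from membrane phospholipids. The 5-lipoxygenase activating protein (Alox5ap, also called FLAP) presents the acid to 5-lipoxygenase (Alox5), which turns it into the unstable leukotriene A4. Leukotriene A4 hydrolase (Lta4h) makes leukotriene B4 from it, a chemoattractant, and is also an aminopeptidase, while leukotriene C4 synthase (Ltc4s) attaches glutathione and starts the cysteinyl leukotrienes. The route is best known in neutrophils, macrophages, mast cells and eosinophils, and cells without 5-lipoxygenase can use Lta4h on leukotriene A4 passed on by neighbours.

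The libraries held between 4135733 and 9501939 reads in KO and between 6129064 and 10622507 in WT, recovered from the deposited normalized values. A normalized count is a read count divided by the size factor of its library, and 1 read was worth between 0.759 and 1.84 of it in KO and between 0.703 and 1.13 in WT, which makes KO 3 the least precise library for weakly expressed genes. On the first principal component (35.1% of variance) KO 3 and WT 2 lay farthest from the rest, on opposite sides. Hpgd itself had 1, 3 and 3 reads in KO 1 to 3 and 17, 11, 9 and 19 reads in WT 1 to 4, and the groups did not overlap. The cells carried T cell and Treg transcripts throughout, with Foxp3 at 123, 107 and 142 normalized counts in KO and 107, 56.1, 161 and 103 in WT, and all 9 listed T cell and Treg markers were among the tested genes.

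The bases just upstream of Lta4h, the most abundant of these genes, and of Alox5 and Pla2g4a, which were near the detection limit in WT, are shown because the levels differed so widely between them. Each is the stretch of 250 bases before the RefSeq start (GRCm38.p6), written 5′ to 3′ on the strand of the gene, with every CG dinucleotide in capitals. The stretches are chr10:93453146-93453395 on the plus strand for Lta4h, chr6:116461179-116461428 on the minus strand for Alox5 and chr1:149961291-149961540 on the minus strand for Pla2g4a.
Lta4h: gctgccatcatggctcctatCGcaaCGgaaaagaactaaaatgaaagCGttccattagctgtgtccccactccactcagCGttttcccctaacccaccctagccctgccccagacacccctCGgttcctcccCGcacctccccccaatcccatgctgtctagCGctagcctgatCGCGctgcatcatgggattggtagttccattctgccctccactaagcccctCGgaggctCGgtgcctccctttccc
Alox5: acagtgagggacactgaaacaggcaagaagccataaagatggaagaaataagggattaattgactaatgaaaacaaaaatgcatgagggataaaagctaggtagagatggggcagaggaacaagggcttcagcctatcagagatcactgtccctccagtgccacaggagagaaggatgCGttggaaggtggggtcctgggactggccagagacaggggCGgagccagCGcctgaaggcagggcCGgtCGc
Pla2g4a: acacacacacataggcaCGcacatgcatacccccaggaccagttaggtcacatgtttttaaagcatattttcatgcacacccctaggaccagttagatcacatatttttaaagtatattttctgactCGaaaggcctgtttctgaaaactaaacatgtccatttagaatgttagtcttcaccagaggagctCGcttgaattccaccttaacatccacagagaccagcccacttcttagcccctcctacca
The table of promoters held 4 of the 5 genes, and Alox5ap had no entry. Lta4h had 11 CG dinucleotides and 58.8% G or C, Alox5 had 5 and 52.8%, and Pla2g4a had 3 and 43.2%. Over 32851 promoters of the same length the medians were 6 CG dinucleotides and 52.4%, and 64.4% of promoters had fewer CG dinucleotides than Lta4h, against 44.4% for Alox5 and 29.0% for Pla2g4a. The letters GGGCGG, searched on both strands and themselves containing a CG, occurred once in the Alox5 stretch and not in the others, and 32.7% of all promoters hold them. TATAAA, also searched on both strands, occurred in none of the 3 stretches and in 12.4% of promoters. Ltc4s had 3 CG dinucleotides and 57.6% G or C. These are descriptions of the letters, with no measurement of binding or methylation beside them.

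Pla2g4a (ENSMUSG00000056220.14, chr1:149829618-149961290 on the minus strand) was read in every KO library and hardly in WT. It had 24.3, 15.3 and 44.1 normalized counts in KO 1, KO 2 and KO 3, from 32, 19 and 24 reads. In WT 1 to WT 4 it had 1.10, 0, 0 and 7.73 normalized counts, from 1, 0, 0 and 11 reads. Every KO library lay above every WT library, KO 3 was the highest, and WT 4 alone held 11 of the 12 WT reads. The lowest KO value and the highest WT value are close in counting terms, since the exact 95% Poisson interval was 9.24 to 24.0 for KO 2 and 3.86 to 13.8 for WT 4. The 0 reads of WT 2 and WT 3 allow levels of up to 2.72 and 3.39, the worth of 3 reads, and the exact interval used for the other values reaches 3.34 and 4.17. Such intervals and limits cover counting error only, since copies of a molecule made by PCR were not marked and each copy counts as a read.

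The mean of Pla2g4a was 27.9 ± 14.7 in KO (SD, n = 3) and 2.21 ± 3.72 in WT (SD, n = 4). The log2 fold change, KO over WT on log2(normalized count + 1), was 3.68 with an SE of 1.16. Pla2g4a was chosen for this difference, so its place among all genes is not given. Its mean of 13.2 over the 7 libraries passed the filter of 10 for tested genes only through KO. From the summed reads, 75 in KO and 12 in WT, the depth-scaled ratio was 8.71 (95% Poisson interval 4.71 to 17.6). Leaving out WT 4 moved this ratio to 70.1 (12.2 to 2806), on 1 remaining WT read, whereas leaving out any other library gave 6.49 to 10.8. Without both KO 3 and WT 2 the log2 fold change was 2.95. Among all tested genes 1.71% of tested genes (202 of 11787) had every KO library above every WT library, and 0% (0 of 11787) passed limma's adjusted p of 0.05. The smallest limma adjusted p of any gene was 0.189, that of the haemoglobin genes Hba-a1 and Hbb-b1, which were lower in KO. An unadjusted limma p under 0.05 was found for 211 genes, of which 92 were higher in KO. Voom on the recovered reads gave 0 passing genes and 193 at that unadjusted p. In bulk RNA, more cells that hold a transcript and more RNA per cell cannot be told apart.

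Alox5ap (ENSMUSG00000060063.9, chr5:149264767-149288153 on the plus strand) was detected in all 7 libraries. It had 31.1, 14.5 and 31.3 normalized counts in KO 1 to 3, from 41, 18 and 17 reads, and 1.10, 9.05, 19.2 and 13.4 in WT 1 to 4, from 1, 10, 17 and 19 reads. The groups overlapped, with KO 2 below WT 3 and just above WT 4, while WT 1 was far below the rest. Means were 25.6 ± 9.61 in KO (SD, n = 3) and 10.7 ± 7.63 in WT (SD, n = 4). The log2 fold change was 1.51 (SE 0.89, 95% interval -0.40 to 3.43), and the ratio of depth-scaled reads was 2.25 (95% Poisson interval 1.55 to 3.32). The Poisson interval covers counting error in the summed reads and leaves out the spread between libraries, so it is too narrow for the group difference. WT 1 decides much of the estimate: without it the log2 fold change was 0.82 and the ratio 1.82. Without KO 3 and WT 2 the log2 fold change was 1.40.

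Alox5 (ENSMUSG00000025701.12, chr6:116410077-116461178 on the minus strand), the enzyme that Alox5ap serves, was near the detection limit in both groups. It had 4.55, 4.04 and 0 normalized counts in KO 1 to 3, from 6, 5 and 0 reads, and 1.10, 0, 2.26 and 7.73 in WT 1 to 4, from 1, 0, 2 and 11 reads. The highest library was WT 4 and the groups overlapped entirely. The 0 reads of KO 3, the shallowest library, allow a level of up to 5.52 as the worth of 3 reads, or 6.78 by the exact interval. The sums were 11 reads in KO and 14 in WT, and the depth-scaled ratio of 1.10 had a 95% Poisson interval of 0.450 to 2.60. With a mean of 2.81 over the 7 libraries Alox5 lay below the filter of 10 for tested genes. Its log2 fold change of 0.13 (SE 0.99) had an interval of -1.99 to 2.24, so at this depth a difference of several-fold in either direction was not detectable. WT 4 held 11 of the 14 WT reads of Alox5, and without that library the ratio was 3.43 (0.906 to 19.1).

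Lta4h (ENSMUSG00000015889.8, chr10:93453411-93484875 on the plus strand) was abundant and even. It had 1781, 2120 and 1811 normalized counts in KO 1 to 3 and 1835, 1964, 1805 and 1612 in WT 1 to 4, each from 985 reads or more. The highest and lowest libraries were KO 2 and WT 4, and the other 5 lay between them with the groups interleaved. Means were 1904 ± 187 in KO (SD, n = 3) and 1804 ± 145 in WT (SD, n = 4). The log2 fold change was 0.08 (SE 0.18), with a 95% interval of -0.31 to 0.46. The ratio of depth-scaled reads was 1.07, with a 95% Poisson interval of 1.04 to 1.11 that again leaves out the spread between libraries. Lta4h ranked 692 of 15815 genes by mean normalized count, and 95.6% of genes were lower.

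**Figure D1:**
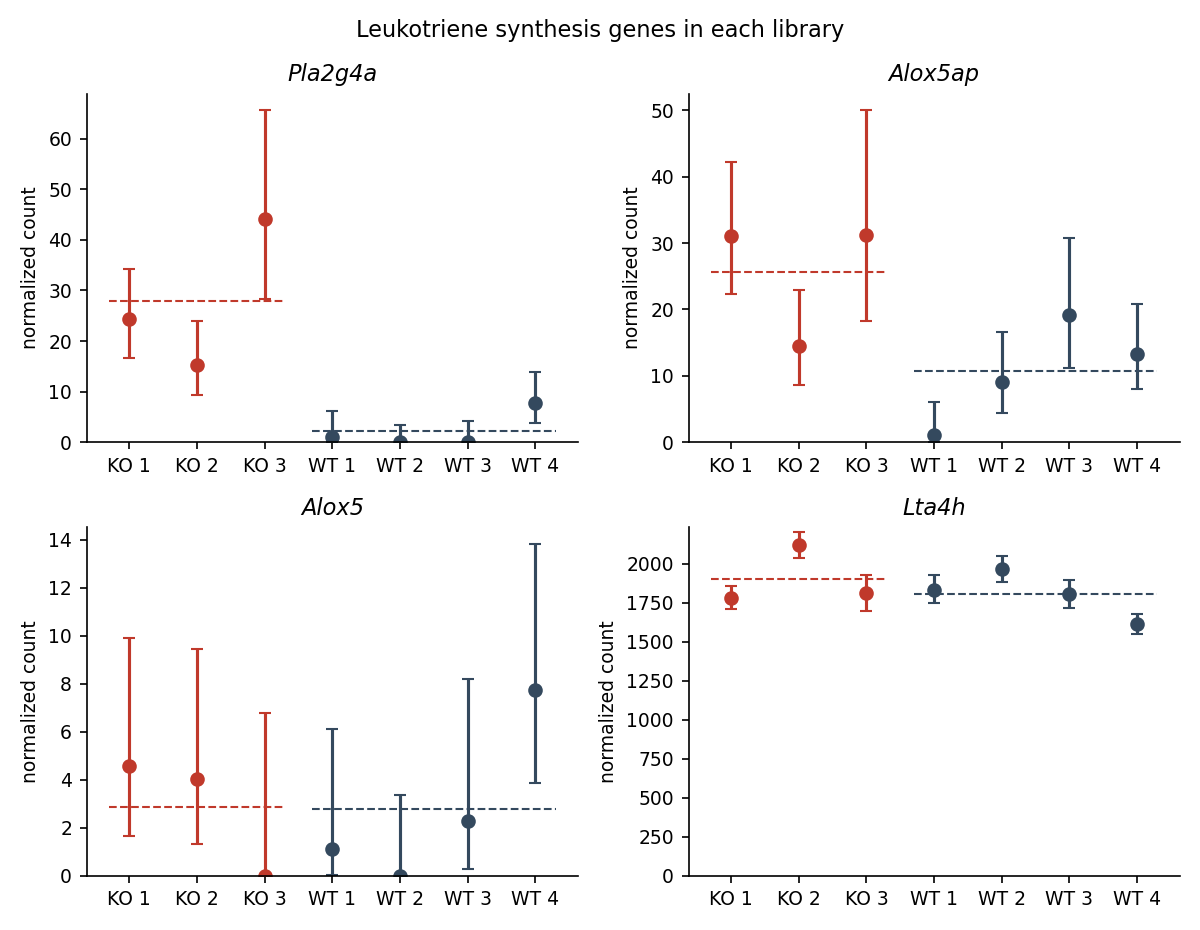
Normalized counts of Pla2g4a, Alox5ap, Alox5 and Lta4h in each library, with KO in red and WT in dark blue. Bars are exact 95% Poisson intervals (counting error only) and dashed lines are group means. Pla2g4a lay at 15.3 or above in KO and at 7.73 or below in WT, while the groups overlapped for the other 3 genes.

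Levels of different genes were compared per length, as normalized counts per kb of the longest coding transcript (2029 bases for Lta4h, 1251 for Alox5ap, 2856 for Pla2g4a and 2821 for Alox5). Lta4h averaged 910 per kb over the 7 libraries, Alox5ap 13.7, Pla2g4a 4.63 and Alox5 0.997. By group the means per kb were 938 in KO and 889 in WT for Lta4h, 20.5 in KO and 8.54 in WT for Alox5ap, 9.78 in KO and 0.773 in WT for Pla2g4a, and 1.02 in KO and 0.983 in WT for Alox5. Lta4h supplied 96.0% to 98.4% of the reads of these 4 genes in KO libraries and 98.2% to 99.8% in WT libraries. The 4 genes held between 0.0248% and 0.0299% of all reads in KO and between 0.0220% and 0.0264% in WT.

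Within libraries the order per kb was Lta4h above Alox5ap above both others in 7 of 7 libraries. The order is given as a description with no test. In WT 1 Alox5ap, Pla2g4a and Alox5 had 1 read each, so their order in that library is set by transcript length alone. Pla2g4a lay above Alox5 in every KO library, whereas the WT reads hardly separated them. Pla2g4a had 8.50, 5.37 and 15.5 per kb in KO, where Alox5 had 1.61, 1.43 and 0. In WT the same reads were found for both in WT 1 (1 read), WT 2 (0 reads) and WT 4 (11 reads). Transcript length alone orders them in WT 1 and WT 4. In WT 3 Pla2g4a had 0 reads and Alox5 had 2. Lta4h per kb was 35.3 to 89.9 times Alox5ap in KO libraries and 57.9 to 1028 times in WT libraries, the highest ratio resting on the single Alox5ap read of WT 1. Measured over the union of all exons the levels were 303, 12.0, 2.07 and 0.685 per kb for Lta4h, Alox5ap, Pla2g4a and Alox5, in the same order.

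**Figure D2:**
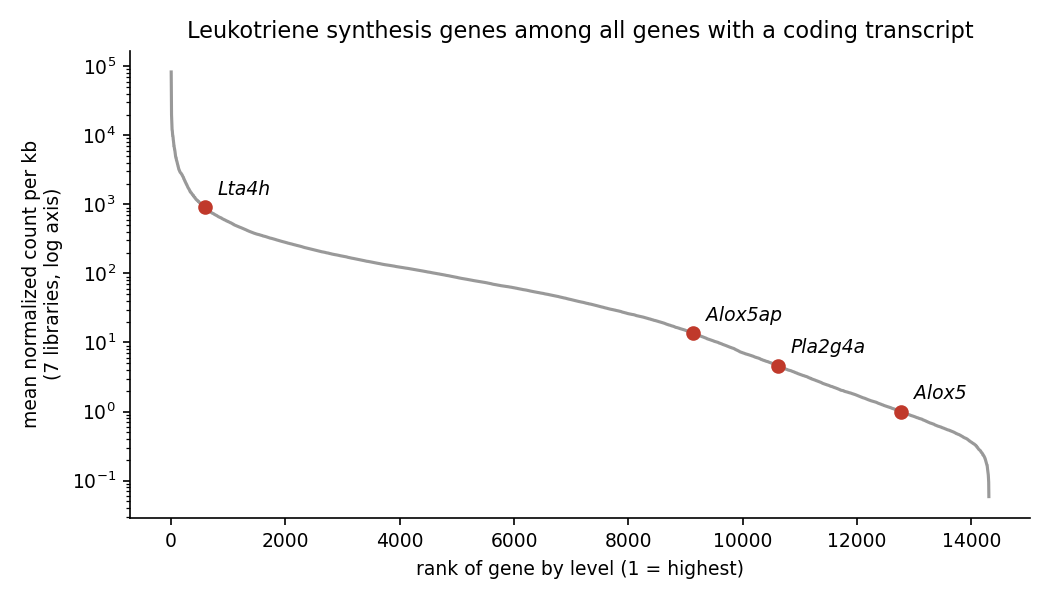
Mean normalized count per kb over the 7 libraries (log axis) against rank for 14305 genes with a coding transcript. Lta4h stood at rank 585, Alox5ap at 9130, Pla2g4a at 10617 and Alox5 at 12774.

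Among the KO libraries Pla2g4a ran from KO 3 over KO 1 to KO 2, and Alox5ap was level in KO 1 and KO 3 (31.1 and 31.3, less than 1 read apart) and lower in KO 2. Alox5 ran from KO 1 over KO 2 to KO 3, and Lta4h was highest in KO 2. Among the WT libraries each gene had its own order: Pla2g4a and Alox5 were highest in WT 4, Alox5ap in WT 3 and Lta4h in WT 2. Across the 7 libraries the genes most like Pla2g4a were Tgoln1 (Pearson r 0.977 of log2(normalized count + 1)), Plpbp (0.966) and Tmigd1 (0.963), out of 11078 genes compared. Tgoln1 had 2378, 2383 and 2488 normalized counts in KO and 2014, 1763, 1739 and 2264 in WT, and the groups did not overlap. Most like Alox5ap were Tsc22d1 (0.954), Clcn5 (0.952) and Arhgap19 (0.949), and most like Lta4h were Fam206a (0.933), Tmem242 (0.914) and Mecr (0.910). These are the highest of many correlations over 7 points that share depth and the group contrast, and no p is given.

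Of the receptors that bind the products, Ltb4r1 and Cysltr1 had higher estimates in KO without passing the test, and Cysltr2 was level. Ltb4r1, which encodes the high-affinity leukotriene B4 receptor BLT1, had 220.8, 132.5 and 161.8 normalized counts in KO and 100.1, 95.1, 130.1 and 64.0 in WT. Every KO library lay above every WT library, KO 2 only narrowly above WT 3 (log2 fold change 0.83, SE 0.34, limma adjusted p = 1.00). Such a separation was seen for 1.71% of tested genes (202 of 11787). Cysltr1, the first cysteinyl leukotriene receptor, had 176.8, 201.2 and 233.5 in KO and 117.7, 49.8, 191.1 and 118.8 in WT, and KO 1 lay below WT 3 (log2 fold change 0.91, SE 0.40, limma adjusted p = 1.00). Cysltr2, the other one, had 428.8, 454.0 and 303.4 in KO and 550.0, 407.4, 260.1 and 351.4 in WT, with interleaved groups and a log2 fold change of 0.04. The low-affinity receptor gene Ltb4r2 stayed below the filter, at 2.28, 12.9 and 3.68 in KO and 0, 1.81, 1.13 and 4.92 in WT. Of 6 listed receptors 4 had a row and 3 were tested, with 3 higher and 0 lower estimates, a median log2 fold change of 0.83 and 0 passing. The median over all tested genes was 0.01, and 51.8% of them had a higher estimate in KO.

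**Figure D3:**
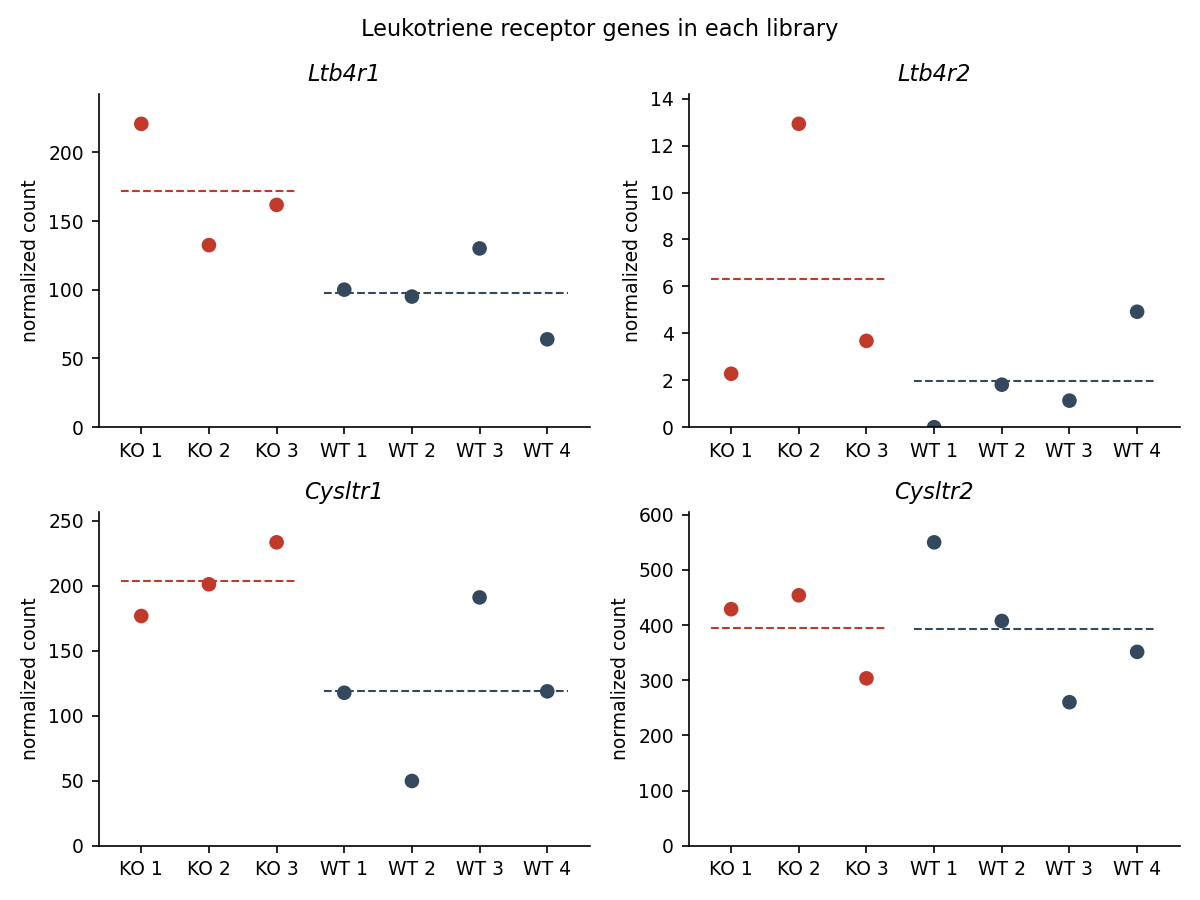
Normalized counts of the leukotriene receptor genes in each library, with KO in red, WT in dark blue and group means as dashed lines. Ltb4r1 lay between 132.5 and 220.8 in KO and between 64.0 and 130.1 in WT, and the groups overlapped for the other 3 receptors.

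Genes that free or store arachidonic acid beside Pla2g4a showed no passing change. Of the 20 other phospholipases A2 listed, 11 had a row and 6 were tested, with 0 higher and 6 lower estimates in KO and a median log2 fold change of -0.28. Pla2g16, the most abundant, had 1076, 912 and 1039 normalized counts in KO and 1040, 1311, 861 and 1083 in WT. The secreted form Pla2g12a had 16.7, 24.2 and 16.6 in KO and 44.0, 38.0, 22.6 and 48.5 in WT, with KO 2 above WT 3. The lysosomal form Pla2g15 had a log2 fold change of -0.36 (SE 0.56). Pla2g4f, a cytosolic relative of Pla2g4a named here after its values were seen, had 0, 8 and 0 reads in KO and 27, 18, 7 and 8 in WT, so KO 2 reached the level of the lower WT libraries.

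Among genes that put arachidonic acid back into lipids, 9 were tested, with 5 higher and 4 lower estimates and a median of 0.01. The lysophospholipid acyltransferase gene Mboat1 was at 36.4, 37.2 and 0 normalized counts in KO and 42.9, 88.7, 53.2 and 97.0 in WT (log2 fold change -2.59, SE 1.05, limma adjusted p = 1.00), with no read in KO 3. The acyl-CoA synthetase genes Acsl5 and Acsl1 had log2 fold changes of -0.00 and 0.49. Release from endocannabinoids was covered by 5 tested genes, 2 higher and 3 lower, with a median of -0.36. Daglb, a diacylglycerol lipase, Abhd12, a lipid hydrolase, and Faah, which degrades anandamide, had log2 fold changes of -0.56, -0.36 and 0.00.

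The list of kinases and binding proteins known to act on cytosolic phospholipase A2 or 5-lipoxygenase had all 12 genes tested, 5 higher and 7 lower, with a median of -0.02. Cotl1, whose product binds 5-lipoxygenase, had 1034, 747 and 759 normalized counts in KO and 1236, 1768, 1026 and 822 in WT (log2 fold change -0.48, SE 0.26). S100a10 and Vim, the most abundant gene of the list, had log2 fold changes of -0.27 and -0.03. The 2 tested lipoxygenase genes other than Alox5 were Alox8, with a log2 fold change of -0.75, and Alox15, with 1.15. Alox15 had 10.6, 26.7 and 0 normalized counts in KO and 0, 0, 0 and 90.0 in WT, and its means ran against the sign of the log2 fold change, at 12.4 in KO and 22.5 in WT. Of 4 relatives of Alox5ap and Ltc4s in the MAPEG family, the 2 tested had lower estimates, with a median of -0.84, and Mgst3 and Ptges were below the filter. Mgst2, which can also make leukotriene C4, had 843, 1095 and 1228 in KO and 1420, 789, 1287 and 957 in WT, with a log2 fold change of -0.06 (SE 0.24). Its relative Mgst1 was at 19.7, 4.04 and 0 in KO and 37.4, 24.4, 3.39 and 9.14 in WT.

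Export and breakdown of leukotrienes were covered by 8 tested genes, 4 higher and 4 lower, with a median of -0.03. Abcc1, the exporter of leukotriene C4, had 578, 394 and 337 normalized counts in KO and 520, 541, 343 and 468 in WT. Ggt1, a gamma-glutamyl transferase that can trim leukotriene C4, had 15.2, 19.4 and 23.9 in KO, from 20, 24 and 13 reads. In WT it had 11.0, 11.8, 10.2 and 8.43, from 10, 13, 9 and 12 reads (log2 fold change 0.84, SE 0.68). Every KO library was higher, as in 1.71% of tested genes (202 of 11787). The cytochrome P450 gene Cyp4f16 had 37.9, 29.9 and 1.84 in KO and 41.8, 64.3, 56.6 and 42.9 in WT, with every KO library lower (log2 fold change -1.78, SE 0.80, limma adjusted p = 1.00). Its KO 3 value rested on 1 read. Counting both directions, the groups did not overlap for 430 of the 11787 tested genes.

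The genes that make, break down or bind platelet-activating factor had 7 tested members, 5 higher and 2 lower, with a median of 0.08. Pafah2, an acetylhydrolase, was at 28.1, 4.85 and 66.2 normalized counts in KO and 18.7, 3.62, 6.79 and 1.41 in WT, and KO 2 lay within the WT range. Pafah1b1 and Pafah1b2 had log2 fold changes of 0.08 and 0.10. Prostaglandin and thromboxane synthases had 4 tested members, 2 higher and 2 lower, with a median of -0.06. Ptgs1 and Ptgs2, named because their enzymes use free arachidonic acid itself, were both below the filter. Ptgs1 had 26 reads in KO and 49 in WT, and Ptgs2 had 3 in KO and 13 in WT. Ptges3, the most abundant, had 1218, 1861 and 2876 in KO and 1245, 1726, 1958 and 1948 in WT. The log2 fold changes of Hpgds and Ptges2 were 0.49 and -0.39. Over all 10 lists, 78 of 95 genes had a row and 57 were tested, of which 26 were higher, 31 lower and 0 passed limma's adjusted p of 0.05. Their median log2 fold change was -0.01, beside 0.01 for all tested genes, and 4 of the 57 had an unadjusted p under 0.05, beside 211 of 11787 for all tested genes.

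**Figure D4:**
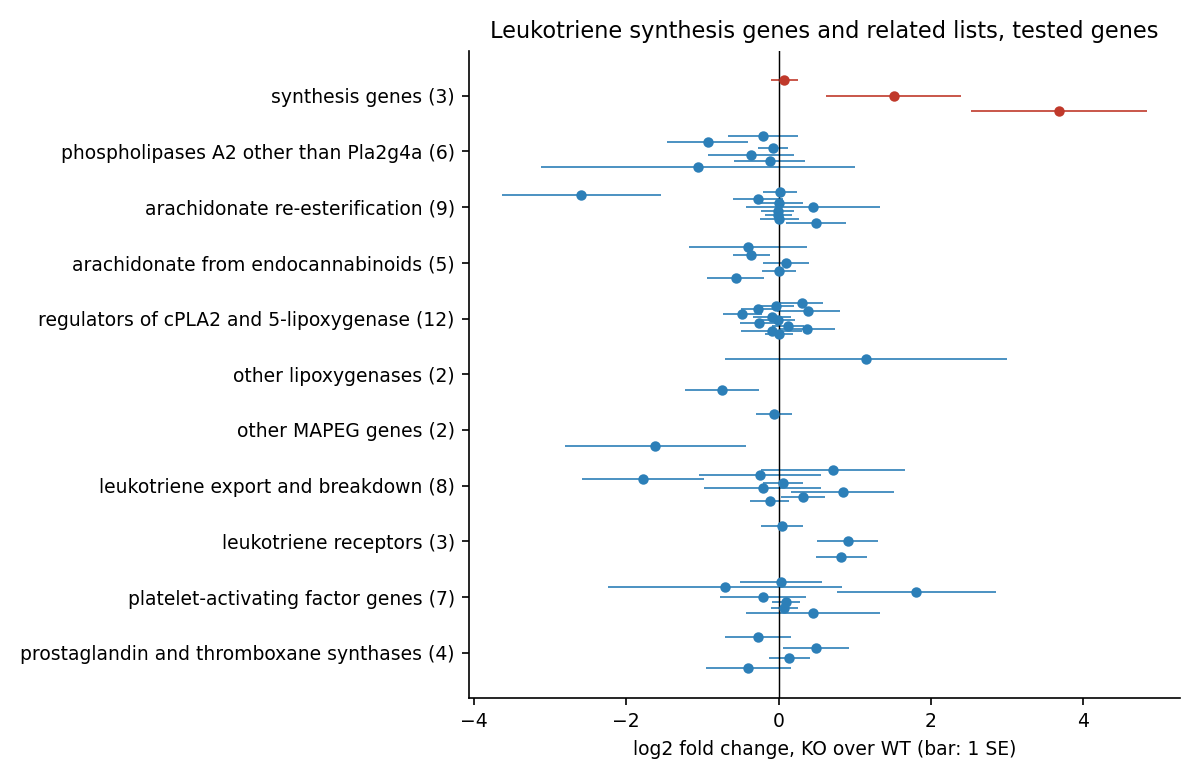
The log2 fold change of KO over WT with 1 SE for the 3 tested synthesis genes (red, in the order Lta4h, Alox5ap, Pla2g4a from the top) and for the tested genes of each list (blue), with the number tested in parentheses. Pla2g4a stood at 3.68 and Alox5ap at 1.51, and the estimates of the lists lay on both sides of 0 with an overall median of -0.01.

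Macrophages and neutrophils express the leukotriene genes strongly, and transcripts of both were read in these sorts. All 12 monocyte and macrophage markers had a row, and their sum ranged from 894 to 1906 in KO and from 224 to 2078 in WT, with 7 higher and 3 lower estimates among 10 tested. Lyz2, the most abundant, had 1274, 482 and 660 normalized counts in KO and 1090, 1043, 47.5 and 962 in WT. The 3 lower estimates were log2 fold changes of -0.68 for Csf1r, -0.65 for C1qc and -0.45 for Mertk. Of the 12 markers Fcgr1 was singled out after its values were seen, and its mean of 5.84 lay below the filter for tested genes. It had 9.87, 13.7 and 16.6 normalized counts in KO and 0, 0, 0 and 0.703 in WT. These came from 13, 17 and 9 reads in KO and 1 in WT. Itgam, with the smallest p among the 10 tested markers, had 21.3, 37.2 and 31.3 in KO and 8.80, 7.24, 10.2 and 37.3 in WT. It was level in KO 2 and WT 4, its highest libraries, which were less than 1 read apart. Library by library the macrophage sum was 1906, 894 and 1346 in KO 1 to 3 and 1814, 2078, 224 and 1693 in WT 1 to 4. The part of these cells in the Pla2g4a and Alox5ap values was not tested.

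**Figure D5:**
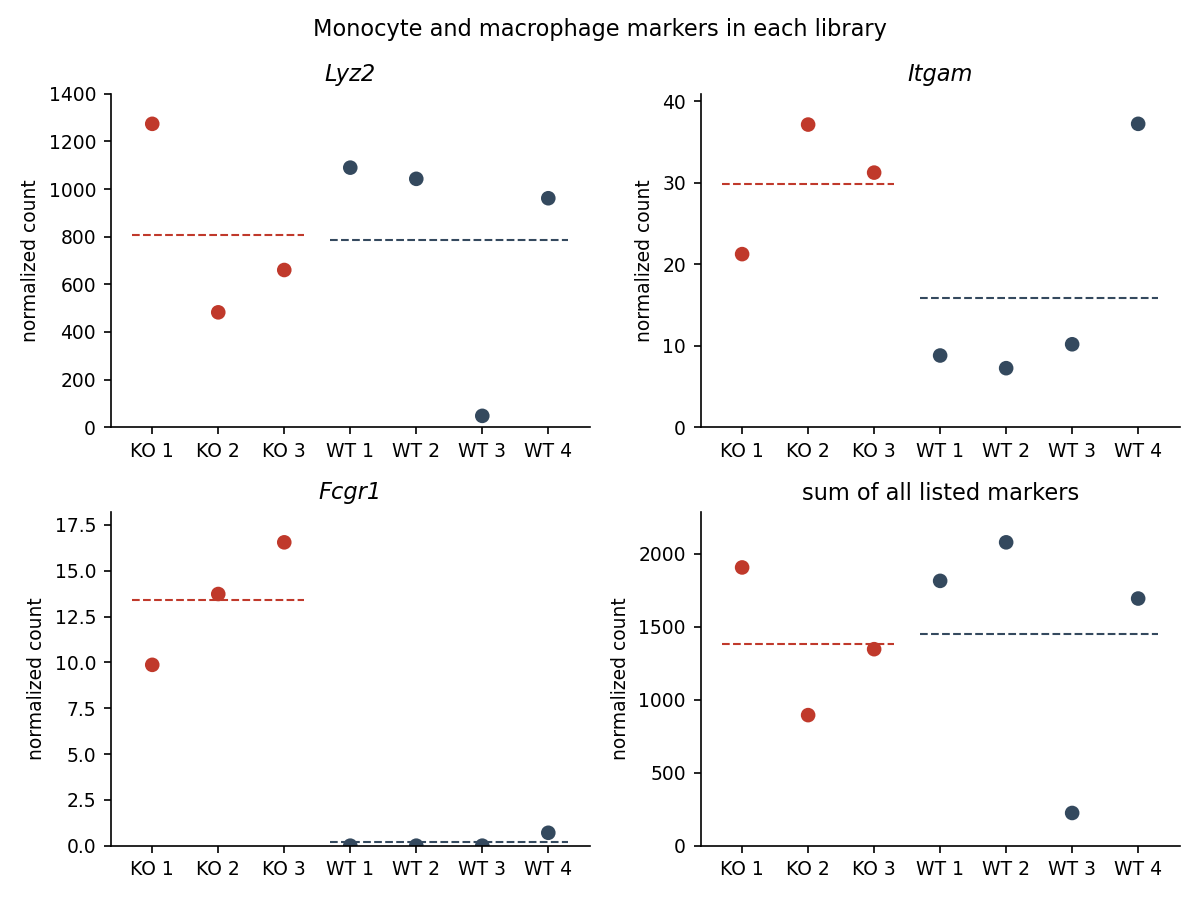
Normalized counts of Lyz2, Itgam and Fcgr1 and the sum of the 12 monocyte and macrophage markers in each library, with KO in red, WT in dark blue and group means as dashed lines. The sum overlapped between groups (894 to 1906 in KO, 224 to 2078 in WT). Fcgr1, chosen after its values were seen, lay at 9.87 or above in KO and at 0.703 or below in WT.

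The neutrophil list had 11 of 12 genes with a row, and its sum was 998, 106 and 143 in KO 1 to 3 and 86.0 to 324 in WT, with S100a8 its most abundant gene. The part of neutrophils in the Pla2g4a and Alox5ap values was not tested. Mast cell and basophil markers (5 of 10 with a row) summed to 58.4, 52.5 and 5.52 in KO 1 to 3. In WT 1 to 4 the sums were 22.0, 32.6, 28.3 and 32.3, below KO 1 and KO 2 and above KO 3, the shallowest library. In KO 3 Hdc had 2 reads, Ms4a2 had 1, and Kit, Cpa3 and Mcpt8 had 0. Eosinophil markers (5 of 8) summed to 12.9 to 26.7 in KO and 12.0 to 32.6 in WT, and dendritic cell markers (7 of 7) to 197 to 254 in KO and 173 to 289 in WT. B cell markers (5 of 7) summed to 353 to 474 in KO and 368 to 765 in WT, platelet markers (2 of 6) to 0.808 to 6.07 in KO and 4.52 to 7.24 in WT, and stromal, endothelial and epithelial markers (5 of 7) to 572 to 739 in KO and 543 to 907 in WT. Erythroid markers (6 of 9) had lower sums in every KO library, at 77.4 to 239 in KO and 650.1 to 2817 in WT. The haemoglobin genes Hba-a1 and Hbb-b1, with log2 fold changes of -3.74 and -3.57, had the smallest limma adjusted p of all tested genes (0.189). The part of any of these cell types in the results was not tested.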

How the data were processed

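RNA-seq was made from 7 sorts of YFP+ Treg cells. SmartSeq2, a full-length cDNA protocol without strand or molecular tags, was applied to 10 ng RNA, per the labels' protocols. The authors' tools, unordered in the submitters' processing notes, include kallisto 0.44, CASAVA 1.8, DESeq2 and Partek 6.6, with build mm10. The deposited values are a normalized signal per gene made by the authors, with an offset of 1. Values minus 1 were whole multiples of 1 read per library (100% within 0.01 read), which gave reads and normalized counts.

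Log2(normalized count + 1) was fitted in R 4.3.3 with limma 3.58.1, a trended prior and Benjamini-Hochberg adjustment at 0.05 over the 11787 genes with a mean of at least 10, and was checked on simulated data. No pair of libraries of the same group agreed within sampling noise (smallest chi-square per degree of freedom 15.5), and pairs across groups were not compared. Coordinates and lengths are from GENCODE M21 (GRCm38), promoters from RefSeq.

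The genes and lists were chosen with earlier results of these data known. Named were the synthesis genes, Hpgd, Foxp3, the receptors, the 2 smallest p and the most abundant gene per pathway list, the leading marker genes, and the 3 genes most like each tested synthesis gene. Genes outside this rule are marked or named for their place in a marker list.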

Additional observations from a re-analysis of the deposited data

Results flagged for a closer look

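Of 55 named genes checked for a WT library far from the other 3, 4 stood out, and chance alone gives about 1 group in 20. The KO group, with 3 libraries, was not checked. Pla2g4a was at 7.73 normalized counts in WT 4, with the other WT libraries between 0 and 1.10. Alox15 was at 90.0 in WT 4 and at 0 in the other WT libraries. Lyz2 was at 47.5 in WT 3, with the others between 962 and 1090. Tmigd1, one of the genes most like Pla2g4a, was at 21.8 in WT 4, with the others between 3.39 and 5.50. In 3 of the 4 cases the library was WT 4. Tmigd1 was among the genes checked only for its likeness to Pla2g4a, so its high WT 4 value is no separate case.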

How the results depend on the processing

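Across 18 alternatives the log2 fold change stayed positive in 18 for Pla2g4a (2.22 to 4.37) and in 18 for Alox5ap (0.82 to 1.91), in 14 for Alox5 (-0.37 to 0.93) and in 17 for Lta4h (-0.00 to 0.18). No leave-out could turn the sign for Pla2g4a, whose groups do not overlap, and the filters and the prior cannot change a fold, so these counts say little about stability. For Pla2g4a the lowest value, 2.22, came with a pseudocount of 5, which shrinks low genes by construction, and leaving out 1 library gave 3.3 to 4.37. Over all genes 4 passed with array weights, 3 with the replicate block and 4 without both WT 2 and KO 3, against 0 otherwise, and the cause was not tested. None of the list genes passed under any alternative, with 21 to 37 of them higher in KO. Genes at an unadjusted p under 0.05 numbered 211, and 110 (without KO 3) to 579 (array weights) under the alternatives.

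Deviations of same-numbered KO and WT libraries from their group means correlated at 0.0081, -0.0357 and 0.0944, and KO 1 correlated best with WT 2 (0.205). Deviations within such small groups depend on each other, so these values cannot decide whether the replicate numbers pair the samples. WT 4 has no KO partner, so it adds nothing to the group difference under the replicate block, and the log2 fold changes (4.37 for Pla2g4a, 1.75 for Alox5ap, 0.68 for Alox5 and 0.02 for Lta4h) equal those without WT 4 and no block. Measured over the union of exons Lta4h moved to 303 per kb from 910, because its exons are longer than its coding transcript. The recovered reads were fitted with voom only, and no negative binomial model was run. Depth limits Alox5 most, with 25 reads in all.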
